A study of Mus musculus with 35 samples.

Results

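Gene expression in mouse tracheal allografts was compared with that in isografts 14 days after heterotopic transplantation, a procedure in which a trachea is placed at a site other than the airway. The allografts had been placed in recipients incompatible at the major histocompatibility complex (MHC), and the isografts in compatible ones. Each group held 5 arrays, so 10 of the 35 arrays of the study entered the comparison. The other arrays were allografts and isografts of days 4 and 25, 5 of each, and 5 native tracheas that were never transplanted. A probe set, the group of array probes that reads 1 transcript, was kept when its log2 value was 5 or more on at least 5 of the 10 day 14 arrays. This held for 12061 of the 22626 non-control probe sets. Strain, genotype and age of donors and recipients are not given in the labels, so a difference between strains cannot be told apart from MHC incompatibility. The labels do not say that replicates were separate animals, so p-values measure the spread between these arrays.

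MHC class I and II molecules display peptides to T cells, and a mismatch between donor and recipient is recognised by recipient T cells. Activated T cells and natural killer (NK) cells release granzymes and interferon-gamma, and interferon-gamma induces chemokines, guanylate-binding proteins and the machinery that loads MHC molecules. The tracheal lining is a pseudostratified epithelium of ciliated, secretory and basal cells over rings of cartilage and a band of smooth muscle, and in the heterotopic mouse model allografts are known to lose this lining and fill with fibrous tissue.

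The values were GCRMA log2 intensities as the authors deposited them, and all levels and differences below are on that scale unless a fold is stated. Array medians over all probe sets lay between 5.16 and 5.2 in day 14 allografts and between 5.07 and 5.3 in day 14 isografts. Native tracheas carried markers of the labelled tissue, with Scgb1a1 of secretory cells at 14.44, Foxj1 of ciliated cells at 7.42, Krt5 of basal cells at 9.2, Col2a1 of cartilage at 11.07 and Acta2 of smooth muscle at 11.75 (means, n = 5). The endothelial marker Pecam1 was low there, at 5.23. The arrays measure bulk tissue, in which fewer cells of a type and less RNA per cell cannot be told apart.

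At day 14, 2224 probe sets differed between allografts and isografts at an adjusted p under 0.05 (limma, Benjamini-Hochberg over the 12061), which is 18.4% of those tested. Of these, 1261 (10.5%) were higher in allografts and 963 (7.98%) were lower. The typical called rise was 1.05 and the typical called fall -1.28 (medians), and the changes at the far end were unequal: 12 probe sets were higher by 4 or more, against 56 that were lower by as much. The median standard error of a difference was 0.23. The 5 allograft values and the 5 isograft values did not overlap in 1710 probe sets, 14.2% of those kept, and 1487 of these were also called. With 1 probe set per gene, 827 of 7478 genes (11.1%) were higher and 736 (9.84%) were lower, and the median difference over all genes was 0.04. Those percentages are the background for the counts within gene lists given below.

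The balance between rises and falls depended on the scaling. Centring each array on 14 reference genes moved the median of all probe sets by -0.221 and gave 798 rises and 1798 falls. Other scalings stayed nearer to balance, with 1063 rises and 1061 falls on 10 reference genes of no other list, 1153 and 1093 on array medians and 1222 and 1079 with repeated quantile normalization. Differences below are relative to the deposited scaling, and a rise or fall of a gene is that of allografts against isografts. A filter of log2 7 tested fewer probe sets, and of the lists below it left 7 rises of mitosis genes, against 26, and 4 falls of ciliary genes, against 12. The filter had its own effect, since 197 probe sets passed it on all 5 arrays of 1 group and none of the other, 78 through allografts and 119 through isografts, and 191 of these were called. Beside the threshold, 284 probe sets had a fifth-highest value from 5 to under 5.1 and were kept, and 275 from 4.9 to under 5 were not.

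**Figure D1:**
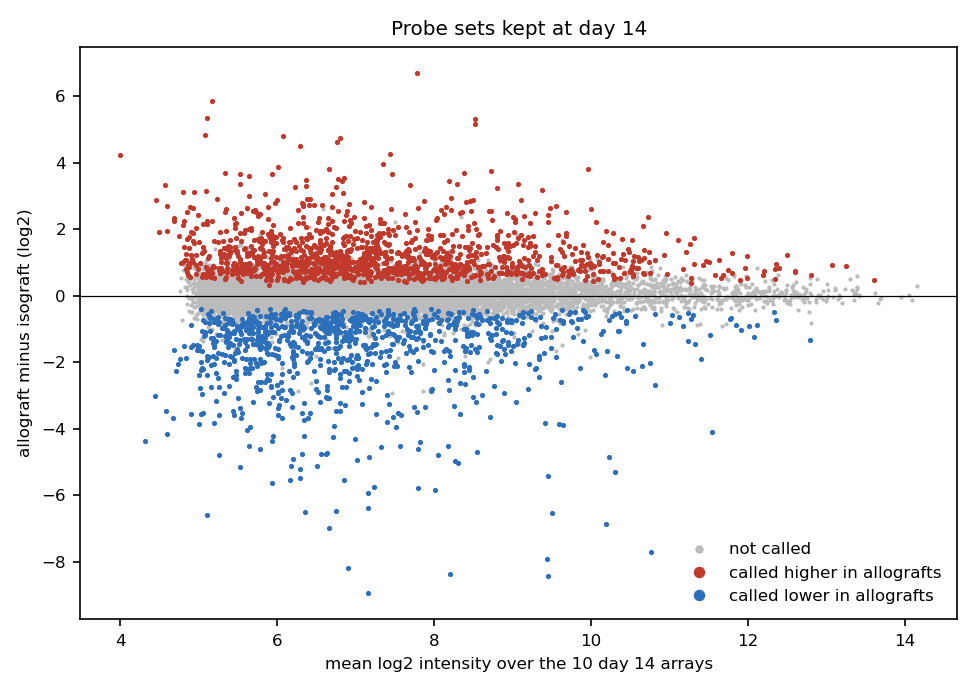
Difference between allografts and isografts at day 14 (log2, vertical axis) against the mean log2 intensity over the 10 arrays (horizontal axis) for the 12061 kept probe sets, with called rises in red, called falls in blue and the rest in grey. Rises reached 6.69 and falls reached -8.94.

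The guanylate-binding proteins and immunity-related GTPases, interferon-induced enzymes that attack intracellular pathogens, were higher in allografts throughout. Of 17 listed, 11 were on the array as probe sets of 1 gene, all 11 were kept and all 11 rose, with a median difference of 2.44. Of these, 1 passed the filter through the allografts alone and so had to differ. Gbp2 was at 10.74, 11.27, 10.96, 11.19 and 10.64 in allografts, against 8.25, 8.03, 7.42, 7.58 and 7.63 in isografts. Every allograft was above every isograft, the difference was 3.18 (SE 0.31, a 9.05-fold rise, adjusted p = 2.19e-09), and native tracheas lay lower still at 6.88 ± 0.22 (SD, n = 5). The smallest rise of the family was 1.75, in Gbp7, and the largest was 4.63, in Gbp8. The related GTPases Igtp, Irgm2, Irgm1 and Iigp1 rose by 2.55, 2.44, 2.19 and 2.2. The mean level of the 11 genes lay between 9.32 and 10.12 on the allograft arrays, against 6.86 to 7.34 on the isograft arrays.

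Promoter windows of members of this family are shown because the genes moved together and their promoters share a motif. The interferon-stimulated response element was searched as GAAA, any 2 bases and GAAA again, on both strands of RefSeq promoters (GRCm38.p6), which run from 250 bases before to 50 after each start site. Promoters were found for 8 of the 11 genes, and 7 of their 9 promoters (77.8%) held the motif, against 1131 of 32851 promoters (3.44%) in the table. It was also in 10 of 24 promoters (41.7%) of the kept type I interferon antiviral genes described below. The choice of motifs was made after the values were seen, and a match describes letters in a window, not a bound site. The windows below run from 100 bases before to 20 after the start, 5′ to 3′ on the gene's strand, with the motif or its reverse complement in capitals. They are Gbp2 at chr3:142620563-142620682, Igtp at chr11:58199456-58199575 and Irgm2 at chr11:58214877-58214996, all on the plus strand.
Gbp2: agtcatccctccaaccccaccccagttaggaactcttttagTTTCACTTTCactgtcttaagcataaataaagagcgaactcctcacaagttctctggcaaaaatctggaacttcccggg
Igtp: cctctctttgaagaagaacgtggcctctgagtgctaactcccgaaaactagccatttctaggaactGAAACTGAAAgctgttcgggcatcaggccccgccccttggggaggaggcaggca
Irgm2: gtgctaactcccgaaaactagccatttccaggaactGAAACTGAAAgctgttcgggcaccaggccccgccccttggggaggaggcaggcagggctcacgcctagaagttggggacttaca
The match lay 59 to 50 bases before the start in Gbp2, 34 to 25 before it in Igtp and 64 to 55 before it in Irgm2. The Igtp and Irgm2 windows are near copies of each other, with a longest identical run of 31 bases that does not include the match.

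The interferon-gamma signalling genes gave fewer calls. Of 15 listed, 13 were on the array, 9 were kept and 4 were higher, with a median of 0.59. Irf1, a transcription factor induced by interferon-gamma, was at 9.02, 9.4, 9.16, 8.99 and 8.93 in allografts, against 8.26, 8, 8.09, 7.58 and 7.46 in isografts, and the groups did not overlap. The difference was 1.22 (SE 0.18, adjusted p = 4.99e-06). Socs3, a feedback inhibitor of cytokine receptors, rose by 1.8, Irf8, a transcription factor of macrophages and dendritic cells, by 1.21, and the kinase Jak2 by 0.88. The cytokine itself was below the filter: Ifng was at 4.42, 5.09, 5.54, 5.74 and 5.34 in allografts, against 3.62, 3.16, 3.09, 3.01 and 2.91 in isografts. The Irf1 promoter window at chr11:53769914-53770033, plus strand, is shown for its gamma-activated sequence, searched as TTCNNNGAA and capitalised below, 90 to 82 bases before the start.
Irf1: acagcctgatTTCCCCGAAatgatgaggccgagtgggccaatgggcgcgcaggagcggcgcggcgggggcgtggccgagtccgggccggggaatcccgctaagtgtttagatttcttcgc
That motif was in 2726 of the 32851 promoters (8.3%) and in 3 of the 9 promoters of the GTPase family (33.3%). The share was the same, 8 of 24 (33.3%), in the kept type I interferon antiviral genes.

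Most kept antiviral genes typical of type I interferon had positive differences, though fewer were called. Of 35 listed, 26 of 30 on the array were kept, with a median of 0.82. Of these, 7 rose, 1 fell and 18 were not called, 15 of the 18 with a positive difference. The share of positive differences over all kept genes was not computed, and their median was 0.04. The list level was 7.37 to 8.03 in allografts against 6.9 to 7.19 in isografts. The fall, Ifi44l, was kept through the isografts alone. Zbp1, a sensor of nucleic acid that can trigger cell death, rose by 2.09 (SE 0.26, adjusted p = 2.19e-07), at 7.46 to 8.85 in allografts against 5.71 to 6.42 in isografts. Bst2, which tethers budding virus, rose by 1.68. Rsad2 and Ifit1 had differences of 1.38 and 1.04 that were not called (adjusted p = 0.0765 and 0.202). Ifi44l went the other way, at 4.66, 4.78, 4.37, 4.95 and 4.74 in allografts, against 7.14, 6.24, 6.3, 6.32 and 7.03 in isografts. Its difference was -1.91 (SE 0.34), and it was nearly the same at day 4, at -2.03, and at day 25, at -2.07. A second kept probe set of Ifi44l fell by 1.82.

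In the class I pathway, 10 of 13 kept genes rose and none fell, of 24 listed and 15 on the array, with a median of 0.87. These counts use 1 probe set per gene, and H2-D1, with probe sets called both ways, is described below. The heavy chain gene H2-K1 was at 12.05, 12.02, 12, 11.98 and 11.96 in allografts, against 11.2, 11.06, 11.21, 10.88 and 10.67 in isografts. The allografts were tightly grouped above the isografts, with a difference of 1 (SE 0.2, adjusted p = 0.000261). Other kept H2-K1 probe sets rose by 1.66 and 1.3 or differed by 0.49 without a call (adjusted p = 0.147). B2m, the light chain, rose by 0.7 (SE 0.16). Of the loading machinery, the peptide transporter gene Tap1 rose by 2.65 (6.29-fold) and its partner Tap2 by 1.34, the chaperone Tapbp by 0.99 and the trimming peptidase Erap1 by 1.27. The calls of H2-K1, B2m, Tap1 and Tap2 held when any 1 day 14 array was left out.

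The inducible proteasome differed from the constitutive one in how many genes moved. All 4 kept immunoproteasome genes rose, of 6 listed and 4 on the array, with a median of 1.95. Psmb8, a catalytic subunit, was at 9.91, 10.01, 10.78, 9.92 and 10.27 in allografts, against 7.76, 7.99, 7.76, 8.88 and 6.95 in isografts, which did not overlap. Psmb9 rose by 2.29 (SE 0.39, 4.88-fold) and Psmb10 by 1.61. Of 31 constitutive subunits, all kept, 2 rose, 1 fell and 28 were not called, with a median of 0.16. The 3 calls, Psmb2 at 1.07, Psma5 at 0.71 and Psmd11 at -0.55, were each lost when certain single arrays were left out (adjusted p between 0.0562 and 0.146). In RefSeq GRCm38.p6 the start sites of Tap1 (34187556, plus strand) and Psmb9 (34187330, minus strand) lie 226 bases apart on chromosome 17, and both genes rose.

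MHC class II genes split by gene. Of 10 kept, 6 rose and 1 fell, of 14 listed and 11 on the array, with a median of 1.08. H2-Ab1 was at 10.73, 11, 11.22, 11.25 and 11.55 in allografts, against 9.88, 9.98, 10.19, 10.25 and 9.45 in isografts, a rise of 1.2 (SE 0.23). Cd74, the invariant chain, rose by 1.18, Ifi30, a thiol reductase of the endosome, by 1.41, and H2-DMa, which loads peptide, by 2.32. H2-Ea, the alpha chain of a class II molecule that some mouse strains lack, was at 7.49, 6.92, 7.51, 7.78 and 7.05 in allografts, against 9.75, 9.2, 9.26, 9.13 and 9.77 in isografts. No value overlapped, the difference was -2.07 (SE 0.21, adjusted p = 4.7e-09), and a second kept probe set fell by 4.79. At days 4 and 25 the H2-Ea difference was -2.03 and -1.97.

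H2-D1 was among 6 genes whose kept probe sets were called in opposite directions, with Arpp19, Eloa, Gfer, Pdxdc1 and Scarb2. Of its 7 probe sets, 4 rose at day 14, by 0.83, 0.84, 1.1 and 1.2. The other 3 fell by 2.02, 2.13 and 2.27, with means of 9.74, 9.58 and 9.4 in allografts and 11.76, 11.72 and 11.67 in isografts. Their differences were -1.48 to -1.49 at day 4 and -4.02 to -4.64 at day 25. Class I genes are near copies of one another and vary between strains, so which transcript these probe sets read is uncertain.

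**Figure D2:**
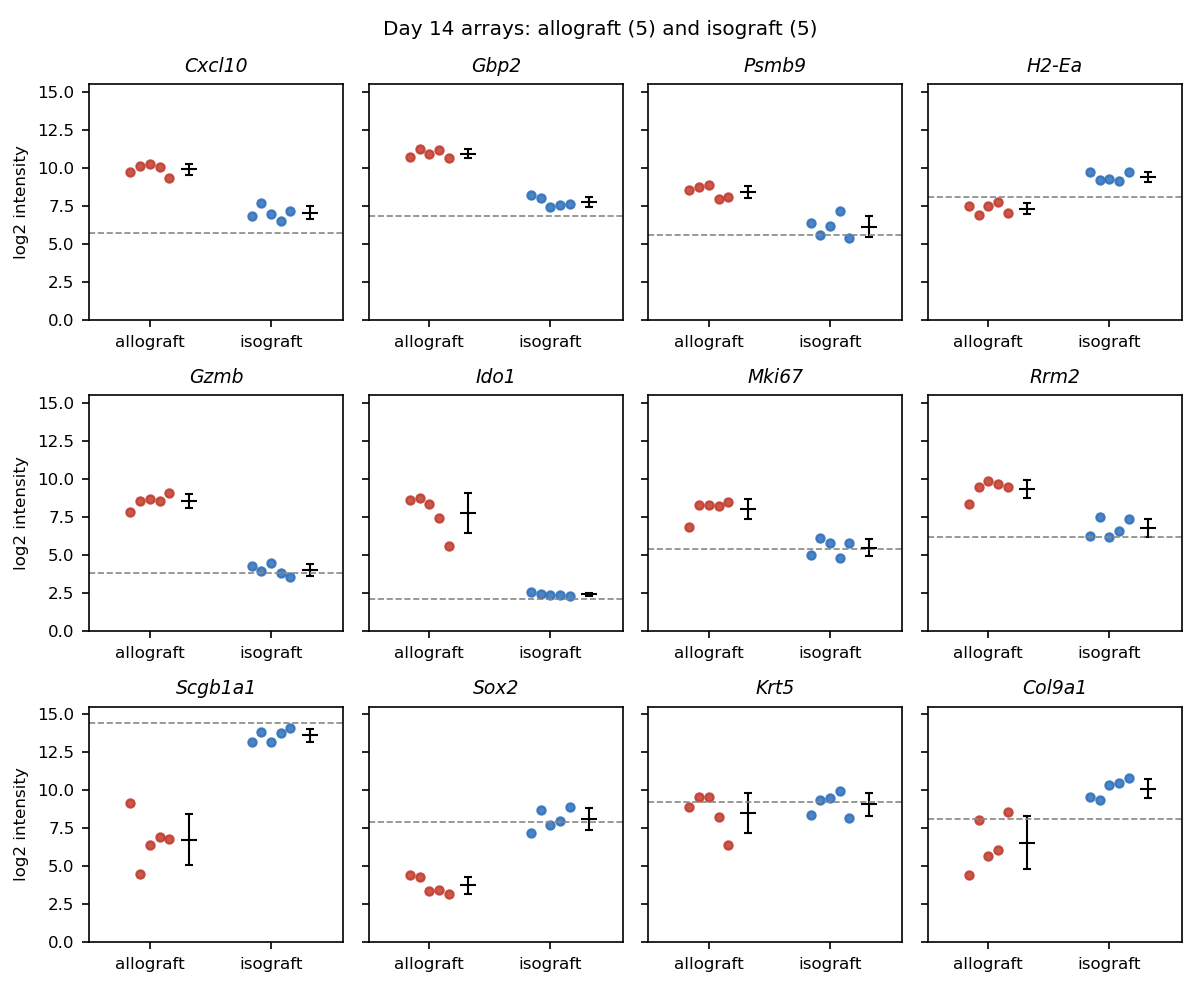
Log2 intensity (vertical axis) of 12 genes on the day 14 arrays, allografts in red and isografts in blue, with the mean ± SD in black beside each group and a dashed line at the mean of 5 native tracheas. Cxcl10, Gbp2, Psmb9, Gzmb, Ido1, Mki67 and Rrm2 lie higher in all 5 allografts, H2-Ea, Scgb1a1, Sox2 and Col9a1 lie lower, and Krt5 overlaps.

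Most kept cytotoxic genes were higher in allografts. Of 18 listed and on the array, 8 were kept and 7 rose, with a median of 1.63. However, 3 of the 8, Gzmb, Gzme and Nkg7, passed the filter through the allografts alone and so had to differ. Gzmb, the granzyme that activates caspases, was at 7.82, 8.6, 8.68, 8.56 and 9.09 in allografts, against 4.27, 4, 4.51, 3.84 and 3.56 in isografts. The gap between the groups was 3.31 wide at its narrowest, and the isografts sat near the native mean of 3.83. Gzma rose by 1.64, Gzme by 2.61, the protease Ctsw by 1.62, the granzyme inhibitor Serpinb9 by 1.38 and the granule proteoglycan Srgn by 1.22. Perforin, Prf1, stayed below the filter, at 4.21, 4.09, 3.6, 3.18 and 3.11 in allografts, against 3.06, 2.82, 2.79, 2.6 and 2.7 in isografts.

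All 4 kept genes of the NK and killer lectin list rose, of 17 listed and 14 on the array, with a median of 1.72 (0.93 over all 14 on the array). Of the 4, Klrd1 and Klrk1 were kept through the allografts alone and so had to differ. Klrd1, the CD94 chain of inhibitory and activating receptors, was at 6.26, 7.49, 7.03, 7.93 and 8.14 in allografts, against 4.52, 4.66, 4.06, 3.89 and 4.45 in isografts, with no overlap and a difference of 3.05 (SE 0.27, 8.31-fold). Klrk1, encoding the activating receptor NKG2D, rose by 1.91. The adaptors Fcer1g and Tyrobp, which myeloid cells also use, rose by 1.52 and 1.31.

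T cell receptor genes gave fewer calls. Of 23 listed and 16 on the array, 10 were kept and 4 rose, with a median of 0.63, but Cd3d and Cd3g passed the filter through the allografts alone and so had to differ. Cd3d was at 5.97, 6.1, 6.82, 7.12 and 7.33 in allografts, against 2.53, 4.09, 3.35, 2.91 and 4.7 in isografts, a difference of 3.15 (SE 0.48). Cd3g rose by 2.33, Thy1 by 1.9 and Ptprc, the CD45 antigen of all leukocytes, by 1.29. The coreceptors were not called: Cd8a differed by 0.63 (95% interval 0 to 1.26, adjusted p = 0.168) and Cd4 by -0.17 (95% interval -0.53 to 0.19, adjusted p = 0.593). Cd3e was below the filter, with means of 5.83 ± 0.82 in allografts and 4.44 ± 0.35 in isografts (SD, n = 5 each). Of the factors that restrain or follow T cell activation, 5 of 6 kept genes rose, of 24 listed and 21 on the array, with a median of 1.35 (0.59 over all 21 on the array), among them Tnfrsf9 by 1.43, Prdm1 by 1.28 and Cd274, the ligand PD-L1, by 3.46 (SE 0.43).

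Ido1, the tryptophan-degrading enzyme that limits T cell growth, had the widest spread of the strongly raised genes. It was at 8.64, 8.76, 8.37, 7.46 and 5.62 in allografts, against 2.58, 2.48, 2.4, 2.41 and 2.33 in isografts. Ido1 passed the filter through the allografts alone and so had to differ. The lowest allograft was still 3.04 above the highest isograft, and the difference was 5.33 (SE 0.33, 40.3-fold, adjusted p = 1.24e-13). Allografts of day 4 averaged 2.42 and those of day 25 averaged 2.46, so the level was raised at day 14 alone among the 3 days.

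B cell genes showed no common direction, with 1 rise, 1 fall and a median of -0.02 over 7 kept of 20 listed and 15 on the array. Ighm, the heavy chain of immunoglobulin M, was at 8, 9.46, 10.69, 10.6 and 10.81 in allografts, against 5.88, 7.01, 6.12, 7.67 and 5.74 in isografts, and rose by 3.43 (SE 0.76, adjusted p = 0.00113). Of its 4 other kept probe sets, 2 rose, by 3.34 and 1.88, and 2 differed by -0.08 and 0.31 without a call. The plasma cell factor Xbp1 was called at a difference of -0.51, and this call was lost on leaving out any 1 of 9 arrays (adjusted p between 0.0506 and 0.161).

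Many of the kept chemokine and receptor genes were raised. Of 36 on the array and 39 listed, 26 were kept, 13 rose and 1 fell, with a median of 1.14. Of these, Ccl7 was kept through the allografts alone and Cxcl15 through the isografts alone, so both had to differ. The CXCR3 ligands Cxcl9 and Cxcl10, which draw activated T cells and were listed apart, rose by 5.15 and 2.87. Of the 4 genes of that list, all on the array, 3 were kept, 2 rose and 1 was not called. Cxcl10 was at 9.77, 10.16, 10.28, 10.06 and 9.38 in allografts, against 6.86, 7.7, 6.99, 6.55 and 7.22 in isografts. The groups were 1.68 apart at their nearest. Ccl5 rose by 2.84, the monocyte attractants Ccl7, Ccl2, Ccl12 and Ccl8 by 3.11, 1.79, 1.66 and 1.56, and Cxcl16 with its receptor Cxcr6 by 1.78 and 1.33. The receptor Ccr1 was at 6.49, 8.03, 7.19, 7.72 and 7.77 in allografts, against 3.56, 5.1, 4.35, 4.76 and 5.01 in isografts, which did not overlap. The single fall was Cxcl15, a chemokine made by airway and gland epithelium, at 3.59 to 3.86 in allografts against 7.98 to 9.84 in isografts (difference -5.2). The platelet chemokine Ppbp differed by 2.59 without a call (adjusted p = 0.0603).

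Macrophage genes rose unevenly. Of 34 listed and 31 on the array, 26 were kept, 12 rose and 1 fell, with a median of 0.9. Fcgr4, an activating Fc receptor, was at 8.06, 8.69, 9.17, 8.84 and 8.34 in allografts, against 5.6, 4.96, 4.53, 4.92 and 5.42 in isografts, and rose by 3.53 (SE 0.41, 11.6-fold). Aif1, a calcium-binding protein of activated macrophages, rose by 2.93, and the general macrophage marker Adgre1 by 0.86 (SE 0.23). The inhibitory Fc receptor Fcgr2b rose by 1.61 and the scavenger receptor Msr1 by 1.92. Gpnmb, a glycoprotein of lipid-laden macrophages, was lower, at 6.41 to 8.4 in allografts against 8.59 to 9.23 in isografts (difference -1.32, adjusted p = 0.0107), and without allograft replicate 1 the call was lost (adjusted p = 0.0514). Slamf8, a surface receptor of activated myeloid cells, was among the largest rises of all genes, at 6.8 to 7.79 in allografts against 3.3 to 4.66 in isografts. Slamf8 was kept through the allografts alone and so had to differ. The markers of monocytes and macrophages were also raised in isografts, whose list level was 8.03 to 8.31, against 6.1 to 6.6 in native tracheas and 8.79 to 9.38 in allografts.

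Complement genes followed. Of 21 listed and 17 on the array, 15 were kept, 9 rose and 1 fell, with a median of 1.03, and Cfi was kept through the allografts alone. The 3 subunits of C1q rose, C1qc by 1.78, C1qb by 1.73 and C1qa by 1.19, as did the alternative pathway stabiliser properdin, Cfp, by 2.32, and C2 by 1.62. Cd55, which protects cells from complement, fell to 5.77 to 6.27 in allografts, against 6.61 to 8.27 in isografts (difference -1.11, adjusted p = 0.00351), but its other kept probe set differed by -0.31 without a call. In the acute inflammatory list 8 of 18 kept genes rose and none fell, of 30 listed and 28 on the array, with a median of 0.86 (0.49 over all 28 on the array), and Ptgs2 was kept through the allografts alone. Il33, an alarm cytokine of stromal cells, was at 9.14, 9.78, 10.04, 9.98 and 9.1 in allografts, against 7.91, 6.58, 6.71, 6.45 and 7.88 in isografts, and rose by 2.5 (SE 0.34). Il1b rose by 1.86, its antagonist Il1rn by 1.92 and Ptgs2, the inducible cyclooxygenase, by 2.02.

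Of the neutrophil-linked genes, 5 of 11 kept rose and 1 fell, of 21 listed and 18 on the array, with a median of 0.92 (0.21 over all 18 on the array). Mmp9, Clec4e, Fpr2, Clec4d and Mmp8 rose by 3.23, 2.89, 2.59, 2.08 and 1.94. S100a8, the calprotectin subunit that fills neutrophils, was at 8.19, 10.17, 9.19, 9.77 and 10.86 in allografts, against 6.63, 11.26, 8.5, 8.2 and 8.99 in isografts. The groups overlapped and the difference of 0.92 was not called (adjusted p = 0.387). The fall was Ltf, lactoferrin, which airway glands make as well as neutrophils.

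Epithelial products were among the largest falls. Of 34 secretory and gland products, 32 were on the array and 25 were kept, 5 of them through the isografts alone. Of the 25, 19 fell and 1 rose, and the median difference was -5.03 (-2.92 over all 32 on the array). Reg3g, an antimicrobial lectin, was at 8.78, 5.91, 6.99, 5.88 and 3.62 in allografts, against 12.46, 12.74, 12.72, 12.73 and 13.18 in isografts. The isografts matched the native mean of 12.55, whereas the allografts were scattered over more than 5 log2 units and all lay below, with a difference of -6.53 (SE 0.57). Muc5b, the gel-forming mucin, was at 4.1, 3.64, 5.1, 3.41 and 4.14 in allografts, against 9.23, 8.67, 9.29, 10.6 and 10.34 in isografts. Ltf was at 11.26, 10.4, 10.11, 8.79 and 6.9 in allografts, against 13.59, 13.69, 13.52, 13.72 and 13.44 in isografts, a difference of -4.1 (17.2-fold lower). Pigr, which carries antibody across the epithelium, fell by 4.97 and the folding enzyme Agr2 by 5.12. The single rise was the transcription factor gene Creb3l1, by 1.09, whose groups overlapped.

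Ciliated cell genes fell almost without exception. Of 49 listed and 24 on the array, 13 were kept, 5 of them through the isografts alone, and 12 fell, with a median of -2.4. Over all 24 on the array the median was -1.95 and 18 fell in a fit without the filter. The radial spoke gene Rsph9 fell by 2.4, the ciliary transport genes Ift172 and Ift81 by 2.57 and 2.18, the tubulin Tubb4b by 2.19 and the ciliary master regulator Foxj1 by 2.76. The list level lay between 5.7 and 5.84 in allografts, a narrow range, against 7.28 to 8.53 in isografts and a median of 7.9 in native tracheas.

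Transcription factors of airway epithelium fell in 8 of 13 kept genes and rose in none, of 30 listed and 27 on the array, with 3, Sox2, Ehf and Esrp1, kept through the isografts alone and a median of -1.61 (-0.93 over all 27 on the array). Sox2, which specifies airway identity, was at 4.4, 4.33, 3.41, 3.44 and 3.16 in allografts, against 7.2, 8.71, 7.74, 7.99 and 8.89 in isografts. The difference was -4.36 (SE 0.35, 20.6-fold lower, adjusted p = 3.99e-11), with 2.8 between the nearest arrays. Klf5, Ehf and the splicing regulator Esrp1 fell by 3.49, 3.54 and 3.58. Ion and water transport genes fell in 9 of 16 kept, of 31 listed and 29 on the array, with 2 kept through the isografts alone and a median of -1.15 (-0.44 over all 29 on the array), including Atp1b1 of the sodium pump by 4.69, the water channel Aqp4 by 4.24 and the sodium channel subunit Scnn1a by 1.99. Cftr, the chloride channel, was below the filter, with means of 4.33 in allografts and 4.49 in isografts.

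Junction and simple keratin genes fell in 17 of 30 kept and rose in none, of 40 listed and 37 on the array, with a median of -1.43, and 2 of them, Cldn8 and Cldn10, were kept through the isografts alone and so had to differ. Krt8 was at 6.61, 6.47, 6.83, 6.14 and 3.87 in allografts, against 7.84, 8.68, 8.42, 9.11 and 8.64 in isografts, a difference of -2.56 (SE 0.38). Krt18, its partner, fell by 2.8, the tight junction claudins Cldn8 and Cldn3 by 2.85 and 2.74, Cdh1, encoding E-cadherin, by 2.23, and desmoplakin, Dsp, by 2.44. Krt19 did not pass: it was at 9.15, 8.28, 9.19, 7.04 and 4.78 in allografts, against 8.06, 8.86, 8.31, 10.18 and 8.62 in isografts, with a difference of -1.12 (95% interval -2.35 to 0.12). Krt7 was likewise not called, with a difference of 0.54 (95% interval -0.54 to 1.62).

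Basal cell genes were divided. Of 32 listed and 29 on the array, 20 were kept, 6 fell, 1 rose and 13 were not called, with a median of -0.51, and without isograft replicate 4 the falls numbered 3. Krt5, the basal keratin, was at 8.88, 9.54, 9.54, 8.23 and 6.41 in allografts, against 8.37, 9.36, 9.5, 9.92 and 8.17 in isografts. These overlapped, and the difference of -0.54 was not called (95% interval -1.74 to 0.65, adjusted p = 0.605). Trp63, the regulator that maintains basal cells, was at 4.42, 4.93, 4.89, 3.77 and 4.36 in allografts, against 5.69, 7.26, 7, 7.03 and 7 in isografts, and fell by 2.32 (SE 0.33), having been kept through the isografts alone. Krt15 fell by 3.93. Krt17, a keratin induced in injured epithelium, was higher by 1.48 (adjusted p = 0.0411), but its groups overlapped and the call was lost without any 1 of 7 arrays (adjusted p between 0.0507 and 0.141). The injury keratins Krt6a and Krt6b differed by 2.36 and 2.59 and the squamous keratins Krt4 and Krt13 by -2.88 and -2.62, none of them called (adjusted p = 0.242, 0.279, 0.316 and 0.427).

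Detoxifying enzymes, which club cells make in quantity, fell in 20 of 38 kept and rose in 1, of 54 listed and 47 on the array, with 5 kept through 1 group alone and a median of -0.99. Cbr2, Sult1d1, Aox3 and Gsta3 fell by 4.85, 4.74, 4.36 and 2.91. Cyp1b1, a cytochrome of stromal cells, was the rise, at 9.35, 10.53, 10.92, 11.17 and 11.32 in allografts, against 9.06, 8.4, 7.64, 7.72 and 8.39 in isografts, with a difference of 2.42 (SE 0.34).

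**Figure D3:**
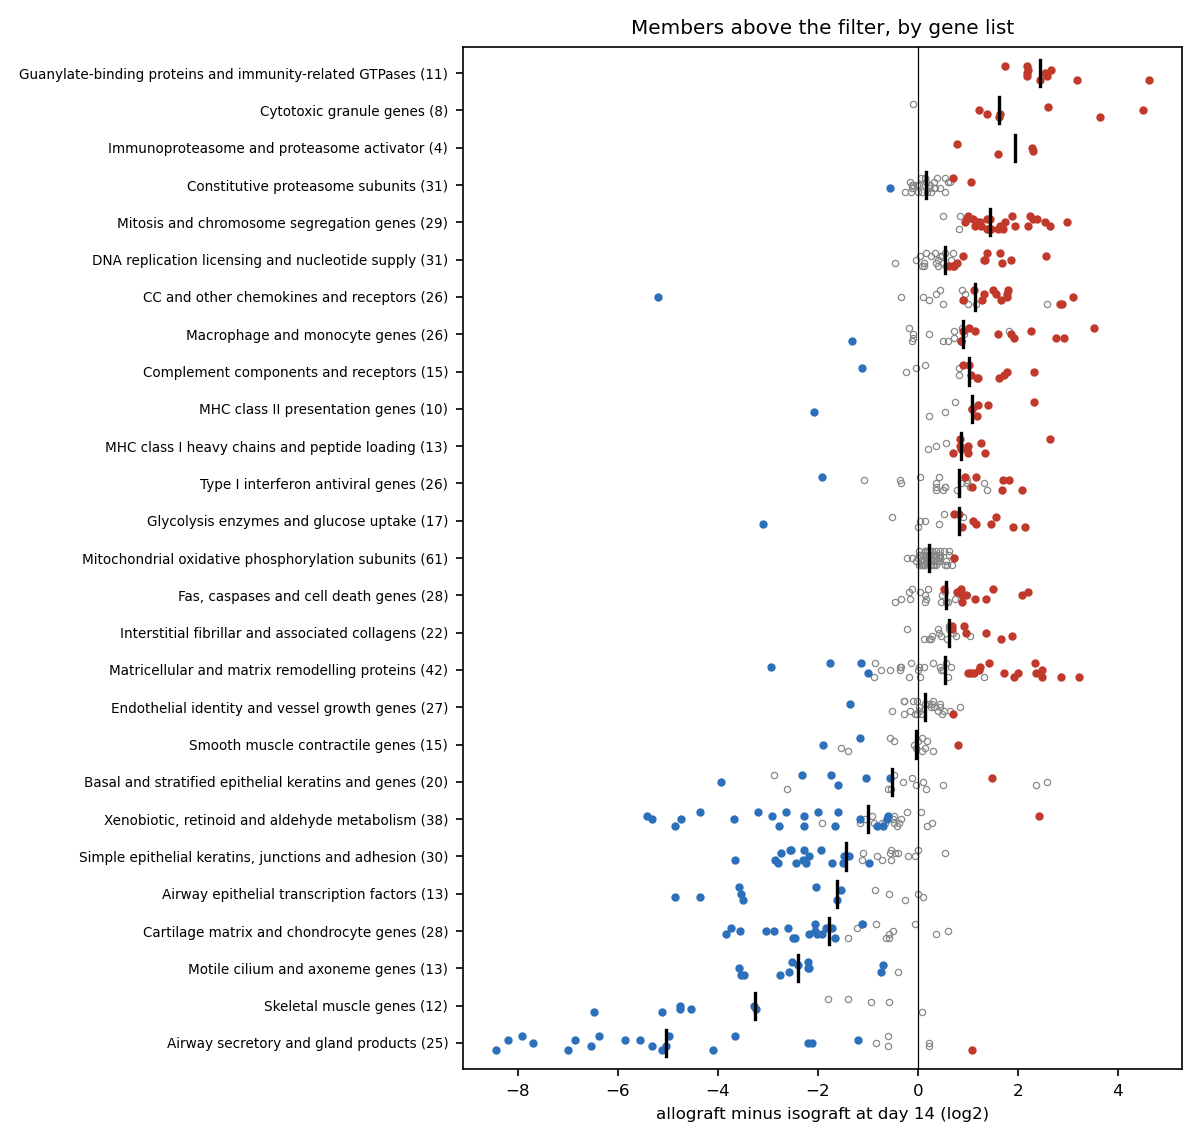
Difference between allografts and isografts at day 14 (log2, horizontal axis) for the members above the filter of 27 gene lists (rows, number of kept members in brackets), with called rises in red, called falls in blue and uncalled members as open grey circles. Black bars mark list medians, between 2.44 for the guanylate-binding proteins and immunity-related GTPases and -5.03 for secretory and gland products.

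Cartilage genes fell at day 14. Of 35 listed and 31 on the array, 28 were kept, 17 fell and none rose, with a median of -1.77, and Epyc was kept through the isografts alone. Col9a1, a chain of the collagen that coats cartilage fibrils, was at 4.4, 8.04, 5.65, 6.09 and 8.6 in allografts, against 9.55, 9.38, 10.34, 10.49 and 10.78 in isografts, with no overlap and a difference of -3.55 (SE 0.66, 11.7-fold lower). Matn4 of the matrilins was lower than in isografts by 2.87, the cartilage regulator Cnmd by 3.04, Frzb, a secreted Wnt antagonist, by 2.59 and Comp by 2.45. For Matn4 the allograft mean of 4.31 was near the native mean of 4.43, while the isograft mean was 7.18. The native mean of Col9a1, 8.09, lay between the 2 group means. The list level was 7.45 to 8.68 in native tracheas, 5.73 to 7.61 in allografts and 7.65 to 8.9 in isografts. Otor, a small secreted protein of cartilage, was at 3.02, 4.84, 3.53, 4.31 and 5.41 in allografts, against 8.52, 7.03, 7.48, 7.69 and 8.79 in isografts. Penk, which encodes the enkephalin precursor and is not on the cartilage list, fell on the same arrays, at 4.5 to 6.57 in allografts against 9.39 to 10.51 in isografts (24.4-fold lower). Col2a1 had overlapping groups, at 7.97 to 10.8 in allografts and 10.1 to 12.38 in isografts, and a called difference of -2.17 (SE 0.56, adjusted p = 0.00468).

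The allograft arrays were not alike in these tissues. Replicate 5 had the lowest mean level of secretory genes, 5.4 against 6.13 to 7.03 on the other allografts, and of junction genes, 5.12 against 5.9 to 6.55, and the highest of cartilage genes, 7.61 against 5.73 to 6.61. Replicate 1 had the lowest level of mitosis genes, 6.3 against 6.82 to 7.05, of cytotoxic genes, 8.02 against 8.71 to 9.02, and of cartilage genes, 5.73. It also had the highest level of oxidative phosphorylation genes, 10.91 against 9.43 to 9.91, and of fat genes, 11.58 against 7.18 to 10.61, and the lowest median correlation across probe sets with its own group, 0.958 against 0.978 to 0.981. The isograft arrays also differed, and isograft replicate 5 held the least skeletal muscle RNA of its group, with a list level of 5.96 against 8.09 to 9.09. The part of these array differences in the results was not tested beyond leaving out single arrays.

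**Figure D4:**
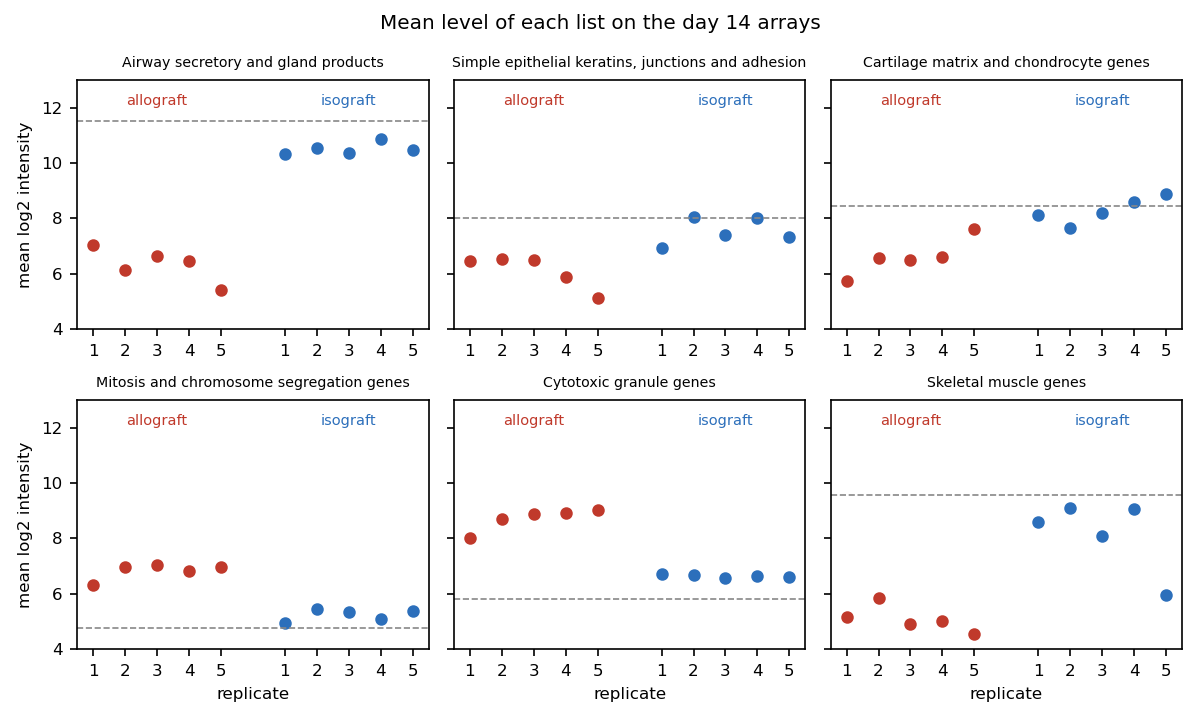
Mean log2 intensity of the kept members of 6 lists (vertical axis) on each day 14 array (horizontal axis, replicate number), with allografts in red, isografts in blue and a dashed line at the native median. Allograft replicate 5 is lowest for secretory and junction genes and highest for cartilage genes, and allograft replicate 1 is lowest for mitosis and cytotoxic genes.

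Cell cycle genes were higher in allografts. Of 51 mitosis genes, 48 were on the array and 29 were kept, 6 of them through the allografts alone, and 26 rose and none fell, with a median of 1.44 (1.32 over all 48 on the array). Mki67, the proliferation marker, was at 6.87, 8.28, 8.32, 8.25 and 8.51 in allografts, against 4.99, 6.11, 5.81, 4.82 and 5.79 in isografts, a difference of 2.54 (SE 0.41, 5.82-fold). The cyclins Ccna2 and Ccnb2 rose by 2.38 and 2.24, the kinase Cdk1 by 1.94 and the ubiquitin enzyme Ube2c by 2.3. Replication genes rose in 12 of 31 kept and fell in none, of 49 listed and 43 on the array, with a median of 0.55, and Tk1 was kept through the allografts alone. Rrm2, which supplies deoxynucleotides, was at 8.34, 9.52, 9.86, 9.66 and 9.46 in allografts, against 6.29, 7.54, 6.23, 6.61 and 7.36 in isografts. Mcm6 of the replicative helicase rose by 1.87 (SE 0.24), and Cdt1, which loads it, by 1.69.

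Promoters of both groups are shown for the motifs known to regulate cell cycle genes. The cell cycle homology region was searched as TTTGAA on both strands and was in 23 of 27 promoters (85.2%) of 25 matched mitosis genes, against 5878 of 32851 (17.9%) in the table. TTTGAA was also in 4 of 9 promoters of the GTPase family (44.4%) and 4 of 35 of the replication genes (11.4%). The E2F motif, searched as TTCCCGC, was in 11 of 35 promoters (31.4%) of 27 matched replication genes, against 1511 of 32851 (4.6%). The windows are those of Top2a at chr11:99024170-99024289 (minus strand), Mki67 at chr7:135716360-135716479 (minus strand) and Ube2c at chr2:164769829-164769948 (plus strand) for the homology region, and Rrm1 at chr7:102441595-102441714 and Uhrf1 at chr17:56303237-56303356 (both plus strand) for E2F, with the match or its reverse complement in capitals.
Top2a: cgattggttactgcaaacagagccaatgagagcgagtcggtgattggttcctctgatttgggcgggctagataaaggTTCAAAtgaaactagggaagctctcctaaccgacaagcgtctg
Mki67: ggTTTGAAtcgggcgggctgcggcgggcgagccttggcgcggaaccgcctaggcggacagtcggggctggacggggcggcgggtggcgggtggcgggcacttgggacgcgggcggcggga
Ube2c: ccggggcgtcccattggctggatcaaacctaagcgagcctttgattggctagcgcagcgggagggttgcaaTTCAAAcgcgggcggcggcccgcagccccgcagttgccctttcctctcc
Rrm1: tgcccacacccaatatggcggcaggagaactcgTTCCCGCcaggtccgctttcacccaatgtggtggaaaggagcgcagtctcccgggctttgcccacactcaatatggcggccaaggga
Uhrf1: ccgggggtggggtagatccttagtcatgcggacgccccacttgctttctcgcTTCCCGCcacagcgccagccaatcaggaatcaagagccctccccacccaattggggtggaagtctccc
Top2a rose by 2.99, Rrm1 by 1.35 and Uhrf1 by 0.71. Of the 21 promoters of 18 matched secretory genes, none held TGTTTAC, the motif of forkhead factors, against 1199 of 32851 (3.65%), which says only that those letters are not in these windows.

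Glycolysis genes rose in 9 of 17 kept and fell in 1, of 22 listed and 18 on the array, with a median of 0.82, and Slc2a3 was kept through the allografts alone. Pgk1, which makes ATP in glycolysis, was at 10.98, 11.26, 11.39, 11.11 and 11.16 in allografts, against 9.67, 10.49, 10.26, 9.82 and 9.86 in isografts, a rise of 1.16 (SE 0.21). The glucose transporter Slc2a3 rose by 2.15, the lactate exporter Slc16a3 by 1.57 and Pdk1, which restrains pyruvate entry to mitochondria, by 1.91. The fall was Aldoc, an aldolase, at 4.41 to 5.92 in allografts against 6.86 to 8.87 in isografts. Subunits of oxidative phosphorylation gave 1 call in 61 kept, of 64 listed, with a median of 0.23. Of the 60 not called, 57 had a positive difference. The call, Ndufa3 at 0.73, was lost without certain single arrays (adjusted p between 0.0843 and 0.114). Hif1a, the oxygen-regulated transcription factor, rose by 1.53 (SE 0.24), whereas Epas1, encoding its paralog, was called at a difference of -1.33, a call lost without any 1 of 4 arrays (adjusted p between 0.0522 and 0.0781). Hmox1, the haem-degrading enzyme, rose by 2.07.

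Cell death genes rose in 11 of 28 kept and fell in none, of 37 listed and 30 on the array, with a median of 0.56, and 2 fell with the reference-gene centring. Ripk3, the kinase of necroptosis, was at 7.18, 7.72, 8.05, 7.28 and 7.88 in allografts, against 5.72, 4.95, 5.39, 5.67 and 5.32 in isografts, and rose by 2.21 (SE 0.31). Casp1, the inflammatory caspase, rose by 1.51, Casp8 by 0.87 and Apaf1, the scaffold of the apoptosome, by 1.15. The death receptor Fas was not called in the fit of all arrays, with a difference of 0.55 (adjusted p = 0.0761), and was called without isograft replicate 1 (0.75, adjusted p = 0.00899).

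Matrix genes were raised in part. Of 25 interstitial collagen genes, 22 were on the array and kept, 7 rose and none fell, with a median of 0.63, the rises numbering 4 without allograft replicate 3, 3 with the reference-gene centring and 12 with array weights. Col12a1, which links collagen fibrils, was at 8.42, 7.96, 8.3, 7.43 and 8.26 in allografts, against 6.76, 6.04, 5.75, 6.11 and 6.29 in isografts, and rose by 1.88 (SE 0.43). Bmp1, which trims procollagen, rose by 1.66 and Col5a1 by 1.36. Col1a1 rose by 0.93 (adjusted p = 0.0342), but the groups overlapped, the call was lost without any 1 of 7 arrays (adjusted p between 0.0537 and 0.125) and its second kept probe set differed by -0.68 without a call. Col3a1 differed by 0.29 without a call (adjusted p = 0.333), and its second kept probe set rose by 0.96.

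Of the matricellular and remodelling genes, 15 rose and 4 fell among 42 kept, of 48 listed and 45 on the array, with a median of 0.54, and the falls numbered 7 with the reference-gene centring and 2 without isograft replicate 1. Mmp13, a collagenase, was at 8.72, 10.23, 10.8, 11.38 and 11.53 in allografts, against 5.92, 8.78, 7.73, 7.35 and 8.57 in isografts, and rose by 2.86 (SE 0.56), with 1 isograft just above the lowest allograft. Adam12, Fbln2, Vcan and Tnc rose by 2.48, 2.37, 2.01 and 1.93. Eln, the elastin gene, was at 7.41, 7.61, 6.71, 7.42 and 7.97 in allografts, against 10.72, 10.02, 10.19, 10.4 and 10.44 in isografts. It fell by 2.93 (SE 0.29, 7.62-fold lower), with the native mean of 9.04 between the group means. The elastic fibre protein Mfap4 fell by 0.99. Pcsk5, a proprotein convertase, was among the largest rises, at 7.57, 8.25, 9.31, 8.81 and 8.88 in allografts, against 5.42, 4.26, 4.78, 4.49 and 4.79 in isografts.

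TGF-beta family genes gave 4 rises and 4 falls in 27 kept of 36 listed and on the array, with a median of 0.24 (0.11 over all 36), and 1 rise and 6 falls with the reference-gene centring. The 4 falls numbered 2 without isograft replicate 5, and the 4 rises numbered 1 without isograft replicate 3 and 2 without 5 other single arrays. Tgfb1, the fibrogenic ligand, was at 6.91, 7.31, 7.73, 8.11 and 8.84 in allografts, against 6.75, 6.98, 6.51, 6.8 and 7.09 in isografts. The groups overlapped at 1 array and the difference of 0.96 was not called (adjusted p = 0.0881), but it was without allograft replicate 1 (1.17, adjusted p = 0.0381). Tgfb3 fell, at 6.54 to 6.92 in allografts against 7.28 to 8.95 in isografts (difference -1.45, SE 0.27), while the activin chain gene Inhba rose by 1.38.

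Smooth muscle and endothelial genes gave few calls. Acta2 was at 10.72, 11.03, 11.34, 11.23 and 10.99 in allografts, against 10.74, 10.9, 10.29, 11.06 and 10.78 in isografts, with a difference of 0.31 (95% interval -0.15 to 0.77, adjusted p = 0.405). Of 15 kept smooth muscle genes, of 23 listed and 22 on the array, 1 rose and 2 fell. Mylk fell by 1.15 and Myh11, the myosin of mature smooth muscle, by 1.89, a call lost without isograft replicate 4 (adjusted p = 0.0707). Of 27 kept endothelial genes, of 32 listed and 30 on the array, 1 rose and 1 fell, each lost without certain single arrays, and Pecam1 differed by 0.64 (95% interval -0.72 to 2). The protein folding list of the endoplasmic reticulum gave 3 rises and 1 fall in 27 kept, of 29 listed and 28 on the array, with a median of 0.1. It gave 5 rises without isograft replicate 5 and 3 falls with the reference-gene centring.

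Markers of tissues around the trachea also differed, and their part in the results above was not tested. Skeletal muscle genes fell in 7 of 12 kept, of 37 listed and 34 on the array, with a median of -3.25 (-2.02 over all 34 on the array). Myh1, a fast myosin, was at 2.79, 6.36, 2.71, 3.06 and 2.66 in allografts, against 10.38, 11.36, 10.06, 11.57 and 6.6 in isografts. The list level was 4.54 to 5.85 in allografts, 5.96 to 9.09 in isografts and 8.16 to 11.77 in native tracheas. Thyroglobulin, Tg, was at 4.66, 3.98, 3.97, 3.5 and 4 in allografts, against 14.22, 12.24, 12.78, 13.43 and 9.26 in isografts. Parathyroid hormone, Pth, was at 2.66, 2.68, 2.43, 3.27 and 2.41 in allografts, against 12.64, 11.57, 10.38, 11.99 and 11.59 in isografts. Tg and Pth were kept through the isografts alone and so had to differ. The gastric lipase gene Lipf, which is on none of the gene lists, was also kept through the isografts alone. It was at 1.72 to 1.87 in allografts, against 6.81 to 10.26 in isografts and a mean of 13.29 in native tracheas. At day 4 Lipf averaged 1.82 in allografts and 2.45 in isografts, whereas Tg averaged 9.34 and 8.66. Which tissue the Lipf signal came from was not tested. No call was made among 19 kept fat genes, of 24 listed and 22 on the array, whose list level ranged from 7.18 to 11.58 in allografts and from 7.47 to 10.47 in isografts.

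Nerve and mast cell lists were small. Of 10 kept Schwann cell and nerve genes, of 26 listed and 23 on the array, 3 fell and 1 rose, and 6 fell with the reference-gene centring. Erbb3, a receptor of Schwann cells and of epithelium, was at 4.12 to 5.86 in allografts against 7.12 to 8.21 in isografts, a fall of 2.8, and Ncam1, an adhesion molecule of nerve, muscle and NK cells, rose by 2.34. Of 4 kept mast cell genes Hdc, which makes histamine, was called, at 4.7 to 5.98 in allografts against 6.93 to 8.87 in isografts (difference -3.09).

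The day 14 difference was then set against that of the other days by testing the difference of differences. Day 4 differed from day 14 in 796 probe sets, 6.6% of those tested, with 327 more positive and 469 more negative at day 14. Over genes these were 205 (2.74%) and 366 (4.89%). Of the 796, 769 were also called at day 14, against 18.4% of all kept probe sets. Both tests contain the day 14 difference, so much of this overlap is built in. Day 25 differed in 132 probe sets (1.09%), 79 more positive and 53 more negative at day 14, or 61 (0.816%) and 37 (0.495%) over genes. The 79 fell to 48 without allograft replicate 3 and to 50 without isograft replicate 1. Among the 2224 probe sets called at day 14, the difference had the same sign at day 4 in 61.9% and at day 25 in 91.3%. The share over all kept probe sets was not computed. The rises of day 14 had a median difference of 0.16 at day 4 and 0.62 at day 25, and the falls 0.01 and -1.01.

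The medians of the epithelial lists were near 0 at day 4. The secretory list had median differences of -0.17, -5.03 and -5.71 at days 4, 14 and 25, the ciliary list -0.04, -2.4 and -2.14, and the junction list -0.17, -1.43 and -3.03. On day 4 the ciliary list level was 6 in allografts and 6.09 in isografts (medians of 5 arrays), and on day 14 it was 5.82 in allografts and 8.02 in isografts. The isograft level was thus higher on day 14 than on day 4, while the allograft level of the 2 days was close, a comparison between days that was not tested. The secretory level, by contrast, was 8.97 in allografts and 9.01 in isografts on day 4, 6.45 in allografts and 10.49 in isografts on day 14, and 5 in allografts and 10.8 in isografts on day 25.

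Several keratins separated day 14 from day 25. Krt5 averaged 9.72 in allografts and 9.76 in isografts on day 4, 8.52 in allografts and 9.06 in isografts on day 14, and 3.68 in allografts and 8.66 in isografts on day 25. The day 14 difference exceeded that of day 25 by 4.44 (adjusted p = 0.00241). For Krt19 this excess was 5.38, for Krt7 4.95, for Krt8 3.51 and for Krt17 2.81 (adjusted p = 0.000285, 0.000176, 0.000181 and 0.0488). Krt15 was not called, with an excess of 1.76 (adjusted p = 0.556), and of the 20 kept basal genes 2 were called above their day 25 difference. Of the secretory products Ltf, Wfdc2 and Bpifa1 were likewise less reduced at day 14 than at day 25, by 5.86, 4.8 and 3.92. Ltf averaged 11.55, 9.49 and 3.55 in allografts at days 4, 14 and 25, against 12.15, 13.59 and 13.52 in isografts.

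**Figure D5:**
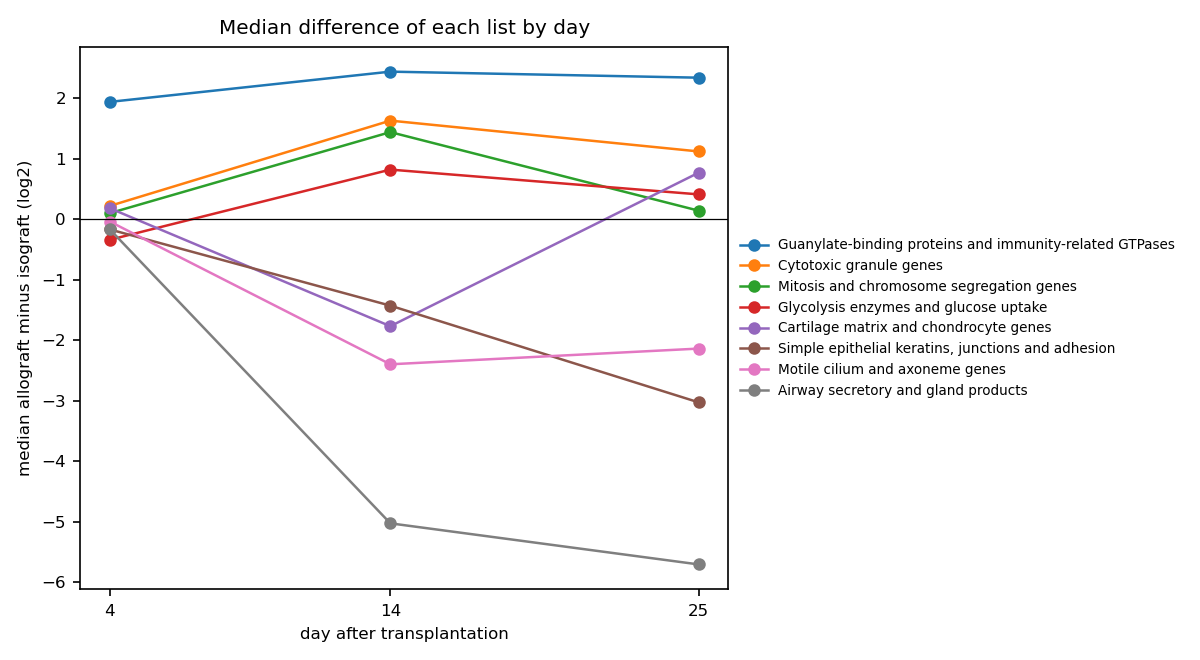
Median difference between allografts and isografts (log2, vertical axis) of the kept members of 8 gene lists at days 4, 14 and 25 (horizontal axis). The cartilage list stands at 0.18, -1.77 and 0.77, the mitosis list at 0.1, 1.44 and 0.14, and the guanylate-binding and immunity-related GTPase list at 1.94, 2.44 and 2.34.

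Cartilage genes were lower in allografts at day 14 but not at the median of the list at either other day. The list median was 0.18, -1.77 and 0.77 at days 4, 14 and 25, with 10 genes more negative than at day 4 and 11 more negative than at day 25. Otor averaged 6.5, 4.22 and 8.6 in allografts at days 4, 14 and 25, against 6.52, 7.9 and 7.41 in isografts. Its day 14 difference was below that of day 25 by -4.88 (adjusted p = 0.000248). Penk averaged 6.8, 5.49 and 10.43 in allografts at the 3 days, against 7.07, 10.1 and 9.92 in isografts, and was below day 25 by -5.12. Mia, Col9a1, Matn4 and Chad were below it by -4.55, -4.42, -4.23 and -4.11, and Eln by -2.3.

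The mitosis list had median differences of 0.1, 1.44 and 0.14 at days 4, 14 and 25. Its level was 7.73 in allografts and 7.68 in isografts on day 4, 6.95 in allografts and 5.33 in isografts on day 14, and 5.64 in allografts and 5.61 in isografts on day 25, against 4.77 in native tracheas. The allograft level on day 14 lay below that of day 4, which was not tested. Mki67 exceeded its day 4 difference by 2.7 and its day 25 difference by 2.37 (adjusted p = 0.00282 and 0.0355). Ido1 was above both, by 5.53 and 5.18, and so was Ubd, a ubiquitin-like protein induced by interferon-gamma, by 3.78 and 3.37. Both Ido1 and Ubd were kept through the day 14 allografts alone and so had to differ on that day.

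Immune genes differed in how early they separated. Of those below, Gzmb, Nkg7, Ccl7, Gbp8 and Klrd1 were kept through the day 14 allografts alone and so had to differ on that day. The filter therefore bears on their excess over day 4. Gzmb and Nkg7 had differences of 0.92 and 0.6 at day 4 that were exceeded at day 14 by 3.59 and 3.04 (adjusted p = 1.96e-07 and 7.63e-06). The chemokine Ccl7 exceeded its day 4 difference by 3.62. By contrast Cxcl10 had differences of 2.53, 2.87 and 2.59 at days 4, 14 and 25, and Gbp2 had 2.75, 3.18 and 2.98, with no call for a difference between days. The families were not uniform: Gbp8 had 2.11 and 4.63 at days 4 and 14, a called change of 2.53 (adjusted p = 0.00383), and Klrd1 was already apart by 2.01 at day 4 and by 3.05 at day 14, a change of 1.05 without a call (adjusted p = 0.104). Adgre1 had 0.36, 0.86 and 2.4, and its day 14 difference was below that of day 25 by -1.54 (adjusted p = 0.00782). Acta2 had 0.14, 0.31 and -1.29, and stood above its day 25 difference by 1.6 (adjusted p = 0.00495).

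Some probe sets were apart in the same direction on all 3 days. The one assigned to Rpgrip1, a gene of photoreceptor cilia, had the largest rise of day 14, at 10.66, 11.39, 11.16, 10.66 and 11.74 in allografts, against 5.24, 4.96, 3.94, 3.65 and 4.35 in isografts. Its differences were 5.77, 6.69 and 6.98 at days 4, 14 and 25, while the 3 other Rpgrip1 probe sets, all below the filter, differed by -0.15, -0.04 and -0.08 at day 14. Trim34a, of an antiviral family, had 2.78, 3.68 and 4.09 at days 4, 14 and 25, and its other probe set, also below the filter, differed by 0.01 at day 14. The first Trim34a probe set was kept through the allografts alone and so had to differ at day 14. With the strains not given, a sequence difference between the mice under a probe cannot be told apart from a difference in expression for Rpgrip1, Trim34a, H2-Ea and Ifi44l. Native means were 3.24 for Rpgrip1 and 3.04 for Trim34a, on the side of the isografts. They were 4.57 for Ifi44l, near the allograft mean of 4.7, and 8.12 for H2-Ea, between the 2 groups. Pdxdc1 varied more by day: of its 3 kept probe sets, 1 had differences of -0.54, -3.6 and -2.69 at days 4, 14 and 25, another 1.52, 2.57 and 2.75, and the third 0.34, -0.18 and 0.48.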

How the data were processed

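The study hybridised biotin-labelled cRNA from tracheal tissue to 1-colour oligonucleotide arrays, and per the labels' protocols total RNA was extracted with TRIzol and cleaned on RNeasy columns. The authors deposited a table of log2 intensities, produced with GCRMA 1.1.3 per the submitters' processing notes, which corrects background by probe composition, normalizes across arrays and summarises probes. GCRMA values of weakly expressed genes depend on its background model, so differences against low levels are uncertain in size, and precision is limited by 5 arrays per group. Detection calls were not used here.

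Groups came from the sample titles. Of 22690 probe sets, 64 controls were left out. Probe sets were named through GEO's platform annotation, and of the 12061 kept, 11042 named 1 gene, 445 several and 574 none. A gene was represented by its kept 1-gene probe set with the highest mean over the 10 day 14 arrays. Differences, including the differences of differences, came from 1 linear model over 35 arrays in 7 groups, with moderated variances (eBayes of limma 3.58.1, R 4.3.3), with Benjamini-Hochberg adjustment over the kept probe sets and a threshold of 0.05. On simulated data with 100 probe sets changed by 1 and 100 by 2 (log2), the day 14 test recovered 61% and 94%, with 8 false calls. The simulated noise was normal and independent, and a far smaller share changed than the 18.4% called here, so recovery in the data can differ. Tables and plots used Python 3.11.15, pandas 2.3.3, numpy 2.4.6 and matplotlib 3.10.9.

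Genes named are a chosen set of lineage and immune genes, the largest called members of each of 49 gene lists, the 10 largest non-overlapping rises and falls, and the 5 largest differences from each other day in each direction. Further list members given as examples were chosen after their values were seen. The comparison and the lists were chosen with earlier results of these data known. The level of a list on an array is the mean log2 value of its kept members. Alternatives covered the filter, scaling, variance model, array weights, the replicate number as a block, leaving out arrays, and the choice of probe set.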

Additional observations from a re-analysis of the deposited data

Results flagged for a closer look

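Among 298 groups of 5 arrays examined for the named genes, 12 held 1 array far from the other 4, and chance gives about 1 in 20. Allograft replicate 1 was lowest for Birc5 (6.33, against 7.05 to 7.14 on the other allografts), Mki67 (6.87, against 8.25 to 8.51), Rrm2 (8.34, against 9.46 to 9.86) and C1qc (9.77, against 10.16 to 10.3). Allograft replicate 5 was lowest for Krt8 (3.87, against 6.14 to 6.83) and Cd55 (5.77, against 6.14 to 6.27). Allograft replicate 2 was highest for the muscle myosin Myh1 (6.36, against 2.66 to 3.06), replicate 3 for Il4ra (9.29, against 8.05 to 8.39) and replicate 4 for Cftr (4.75, against 4.16 to 4.33). Among isografts, replicate 1 was highest for Cftr (5.73, against 3.98 to 4.36) and lowest for Trp63 (5.69, against 7 to 7.26), and replicate 5 was highest for Tgfb2 (7.31, against 5.43 to 5.88).

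The difference between allografts and isografts at day 14 departed from that of day 4 in 796 probe sets and from that of day 25 in 132. Against day 4, the largest positive departures were Ido1 at 5.53, Ubd at 3.78, Ccl7 and Pcsk5 at 3.62 each and Gzmb at 3.59. The largest negative ones were Pth at -12.29, Tg at -9.04, Scgb3a2 at -8.37, Dmbt1 at -7.92 and Scgb3a1 at -7.6. Ido1, Ubd, Ccl7 and Gzmb were kept through the day 14 allografts alone, and Pth, Tg and Dmbt1 through the day 14 isografts alone. These had to differ on day 14, so the filter bears on their departures from day 4. For Pth, day 4 allografts ranged from 4.21 to 10.54 and day 4 isografts from 2.29 to 7.15, so the early groups were themselves scattered. Against day 25, the largest positive departures were Ltf at 5.86, Krt19 at 5.38, Ido1 at 5.18, Krt7 at 4.95 and Wfdc2 at 4.8. The largest negative ones were Penk at -5.12, Otor at -4.88, Mia at -4.55, Col9a1 at -4.42 and Matn4 at -4.23.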

How the results depend on the processing

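Of 134 called named genes, 115 kept their call in each of 21 alternatives that tested them. The log2 7 filter tested 100 of the 145 kept named genes, and the others count as unchanged there. Many named genes were chosen for their large called differences, so this share does not describe called genes in general. Day 14 rises numbered 1261 and falls 963. They became 798 and 1798 when arrays were centred on 14 reference genes, which include B2m, Pgk1 and Actb, themselves called higher. With 10 reference genes of no other list, a choice made after seeing the data, the counts were 1063 and 1061 and the median of all probe sets moved by -0.075 in place of -0.221. A filter of log2 7 gave 787 rises and 512 falls, an adjusted p under 0.01 gave 786 rises, and a least difference of 1 gave 676 rises and 609 falls, each by testing or counting fewer probe sets. Against day 4, the 327 positive calls became 640 with array weights, 185 with reference-gene centring and 492 with the compared arrays alone, and the 469 negative calls became 932 with that centring and 273 with the log2 7 filter. Against day 25, the 79 positive calls became 52 with the compared arrays alone. The cause of the other shifts was not tested. Leaving out 1 array gave 1010 to 1320 rises and 836 to 987 falls at day 14, 229 to 381 positive and 380 to 507 negative calls against day 4, and 48 to 117 positive and 37 to 62 negative calls against day 25, with 48 without allograft replicate 3 and 50 without isograft replicate 1. With the replicate number as a block, the day 14 counts were 1302 and 965, those against day 4 were 356 and 473, and those against day 25 were 89 and 68. The numbers did not pair the arrays: correlations of same-numbered deviations at day 14 ran from -0.45 to 0.383, and 1 of 5 arrays correlated best with its own number.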

Other observations

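Some smaller immune and stress lists moved in part. Of the dendritic cell and costimulation genes, 4 of 11 kept rose, of 21 listed and 19 on the array, with a median of 0.6, and Flt3 was kept through the allografts alone. Fscn1, the actin bundler of mature dendritic cells, rose by 1.01 (10.51 to 11.79 in allografts against 10.11 to 10.47 in isografts). Of the common gamma chain and cytokine receptors, 2 of 6 kept rose and 1 fell, of 20 listed and 19 on the array. Il15ra, which presents interleukin-15, rose by 0.97 in its brightest probe set and by 2.24 in its other one, and Il18r1 differed by -1.11, a call lost without any 1 of 3 arrays (adjusted p between 0.0791 and 0.102).

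Genes of alternative activation rose in 4 of 9 kept and fell in 1, of 20 listed and 17 on the array, with a median of 1.22 (0.07 over all 17 on the array). Il4ra, the interleukin-4 receptor, rose by 1.83 and Chil1, a chitinase-like protein, by 1.6, while its relative Chil4 was at 4.81 to 5.31 in allografts against 6.12 to 10.68 in isografts. Chil1 was no longer called once allograft replicate 5 was left out (adjusted p = 0.09), nor was Chil4 without isograft replicate 2 or 4 (adjusted p = 0.0532 and 0.0686). Arg1 differed by 1.82 without a call (adjusted p = 0.2). Of 15 kept hypoxia-responsive genes, 3 rose and 1 fell, of 17 listed and 16 on the array, with a median of 0.28. The skin and hair list kept 2 genes, of which Calml3 was called, at 5.46 to 8.29 in allografts against 7.93 to 10.54 in isografts, and lost its call without any 1 of 5 arrays (adjusted p between 0.0522 and 0.0942). Of 2 kept erythrocyte and platelet genes, Pf4, which macrophages also express, rose by 1.81.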
